A study of Homo sapiens with 6 samples.

Results

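The kinesin motor genes were followed through the induction of neural crest from human embryonic stem cells. Members were the genes whose identifier is KIF followed by a number or by C and a number, with an optional letter A, B or C, so that KIFC1, KIFC2 and KIFC3 are included. The rule found 42 genes among the 23284 in the table. Of these, 14 were classed as mitotic, 15 as transport, 6 as ciliary and 7 as other. The classes follow the known roles of the genes, but were set with earlier results of these data known. CENPE and STARD9 are kinesins with other names and are described with the kinesin partners.

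Kinesins are ATPases that walk along microtubules or take them apart. Mitotic kinesins build the bipolar spindle, move chromosomes and organise the midzone where daughter cells part. Transport kinesins carry vesicles, mitochondria and protein complexes away from the cell centre, and some isoforms, such as KIF1A and KIF5A, are best known from neurons. A further set moves cargo into the primary cilium or controls its length, the structure through which vertebrate cells read Hedgehog signals. Neural crest cells divide, leave the neural epithelium and migrate, steps in which such motors can take part. Whether the motors were in use was not measured here.

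RNA came from WA01, an established human embryonic stem cell line (also called H1) of wildtype genotype, in 3 groups of 2 libraries. They are ES (undifferentiated, day 0), preNC (the intermediate taken on day 3) and NC (neural crest, collected on day 5). The labels' protocol gives plating at 20000 cells per cm2 on Matrigel, with 3 µM CHIR99021 (a GSK3 inhibitor that activates WNT signalling) and 10 µM Y-27632 (a ROCK inhibitor) over the opening 2 days, in medium with 2% B27 and 0.5% bovine serum albumin. That protocol is listed for all libraries, also those of day 0, so it does not show which cells were treated. Levels are FPKM, sequenced fragments corrected for gene length and sequencing depth, and each gene has 1 value per day that merges its libraries. As a result no spread between replicates could be computed and the depth is unknown. Nothing in the labels says that the libraries of a group came from separate cultures. The q in the authors' deposited table may therefore measure only technical spread. Fold changes are log2 ratios of group FPKM, the later day over the earlier one. Each ± gives an implied standard error, obtained as the log2 ratio divided by the authors' test statistic. Genes at a q under 0.05 in the authors' deposited table are described as called, in the direction of their FPKM.

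The labelled stages were checked on marker genes. All 6 pluripotency markers were called lower on day 3 than on day 0, with POU5F1, the core pluripotency factor, at 85.3 FPKM on day 3 and 1087 FPKM on day 0. TDGF1 was at 345, 0.573 and 0.389 FPKM on days 0, 3 and 5, NANOG at 40.8, 0.659 and 0.615, L1TD1 at 169, 17.7 and 3.98, and ZFP42 at 76.5, 42.4 and 14.99. Of 10 neural crest markers 8 were called higher on day 5 than on day 0, among them the border gene PAX3 at 39.9 FPKM on day 5 and 0.253 FPKM on day 0. MSX1, a border factor, was at 0.503, 4.41 and 73.2 FPKM on days 0, 3 and 5, and TFAP2A at 0.108, 1.11 and 11.8 FPKM. On day 3 compared with day 0, 6 of 9 tested were higher and 2 lower, the factors FOXD3 and ETS1. In such bulk RNA, fewer cells of a type and less RNA per cell cannot be told apart.

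The promoters of most mitotic genes, 10 of 14, held 2 sequence motifs. One is the CCAAT box, the site read by the factor NF-Y. The other is the cell cycle homology region, spelled TTTGAA or TTCGAA, the element through which the DREAM and MuvB complexes keep late cell cycle genes silent outside division. Sequences were taken from RefSeq (GRCh38.p14), where 34 of the 42 members had an entry, with 250 bases before and 50 after each start. The 110 bases directly before the start are shown for 6 mitotic members with a homology region in that stretch, including KIF15 and KIF18A, the mitotic members called below. KIF1A and KIF26A follow, which fell during induction and lacked both motifs. KIF21A, called higher, and KIF2A and KIF3C, not called, lacked both as well. A link between these motifs and a change in level was not tested. Capitals mark CCAAT or the homology region, on either strand (ATTGG and TTCAAA are the reverse complements of CCAAT and TTTGAA).
KIF11 (chr10:92593020-92593129, plus strand): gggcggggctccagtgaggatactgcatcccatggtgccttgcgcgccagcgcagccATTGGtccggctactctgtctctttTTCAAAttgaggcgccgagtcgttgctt
KIF15 (chr3:44761684-44761793, plus strand): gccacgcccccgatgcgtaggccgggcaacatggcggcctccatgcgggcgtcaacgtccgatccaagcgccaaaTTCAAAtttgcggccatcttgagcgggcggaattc
KIF18A (chr11:28108157-28108266, minus strand): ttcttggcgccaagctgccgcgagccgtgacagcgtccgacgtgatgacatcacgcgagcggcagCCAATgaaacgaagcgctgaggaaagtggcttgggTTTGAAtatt
KIF23 (chr15:69414239-69414348, plus strand): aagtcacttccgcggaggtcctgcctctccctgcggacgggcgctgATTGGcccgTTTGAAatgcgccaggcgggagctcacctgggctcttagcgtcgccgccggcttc
KIF4A (chrX:70289994-70290103, plus strand): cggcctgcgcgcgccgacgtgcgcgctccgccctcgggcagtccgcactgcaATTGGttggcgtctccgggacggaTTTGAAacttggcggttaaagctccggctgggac
KIF22 (chr16:29790641-29790750, plus strand): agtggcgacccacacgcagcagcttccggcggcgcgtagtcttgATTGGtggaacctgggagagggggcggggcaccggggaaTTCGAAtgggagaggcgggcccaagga
KIF1A (chr2:240820220-240820329, minus strand): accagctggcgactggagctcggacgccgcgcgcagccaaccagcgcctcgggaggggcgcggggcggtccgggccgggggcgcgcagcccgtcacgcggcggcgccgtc
KIF26A (chr14:104138477-104138586, plus strand): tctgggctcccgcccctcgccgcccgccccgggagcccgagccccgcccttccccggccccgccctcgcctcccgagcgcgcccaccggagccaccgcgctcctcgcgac
For KIF22 and KIF1A, which have more than 1 annotated start, the start with the lowest coordinate is shown.

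In the full windows, 11 of 14 mitotic genes held TTTGAA or TTCGAA, against 1 of 11 transport genes with an entry (KIF5B). Over all 27305 genes of that promoter table the share was 19.5%. The mitotic genes with a match were KIF4A, KIF4B, KIF11, KIF14, KIF15, KIF18A, KIF18B, KIF20B, KIF22, KIF23 and KIFC1, and in each the match nearest to the start began between base -55 and base 25. CCAAT was found in 11 of 14 mitotic genes, against 4 of 11 transport genes and 39.7% of all genes. Both motifs were found in 10 of 14 mitotic genes, against 1 of 11 transport genes and 7.85% of all genes. KIF15 held the homology region without CCAAT, KIF20A held CCAAT without the homology region, and KIF2B and KIF2C held neither. TTTAAA, a variant spelling counted apart, was found in 4 of 14 mitotic genes (KIF2C at base -3, KIF20A at -41, KIF14 at -198 and KIF23 at -211), against 1 of 11 transport genes (KIF16B) and 14.5% of all genes. TTCGAA and TTTAAA are their own reverse complements, and ATTGG can share a base with TTTGAA. These matches describe letters in a window and were not tested as sites. KIF4B is a retrocopy of KIF4A, so these are not fully independent. KIF13B, KIF19, KIF21B, KIF26B, KIF27, KIF5A, KIFC2 and KIFC3 had no entry.

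**Figure D1:**
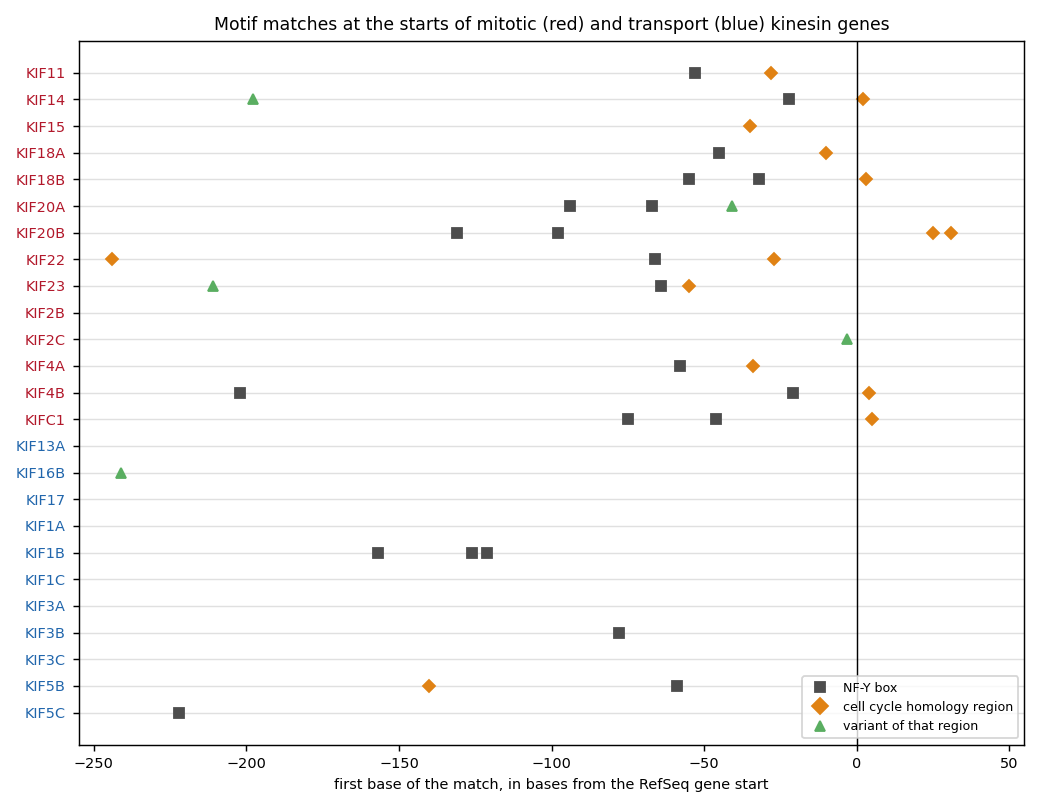
Position of motif matches around the annotated starts of 14 mitotic (red names) and 11 transport (blue names) kinesin genes, in bases from the start. Squares are CCAAT (the NF-Y box), diamonds are TTTGAA or TTCGAA (the cell cycle homology region) and triangles are TTTAAA, with all annotated starts of a gene overlaid on 1 row. Diamonds gather close to the start in 11 mitotic genes, and KIF5B is the transport gene with a diamond.

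Of the 42 kinesins, 36 reached an FPKM of at least 1 in at least 1 group. KIF2B, KIF4B, KIF6, KIF12, KIF19 and KIF26B stayed below 1 on all days. The mitotic class made up most of the kinesin RNA, with 55.8% of the summed kinesin FPKM on day 0, 56.9% on day 3 and 62.9% on day 5. The transport class held 32.7%, 29.6% and 27.05% on days 0, 3 and 5. The sum over all kinesins was nearly level, at 605 FPKM on day 0, 622 on day 3 and 610.0 on day 5. KIF22, a chromosome arm motor, was the most abundant kinesin on all 3 days, and KIFC1, which focuses spindle poles, came next on each. The place after them was held by KIF1A on day 0 and by KIF20A, a cytokinesis motor, on days 3 and 5.

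**Figure D2:**
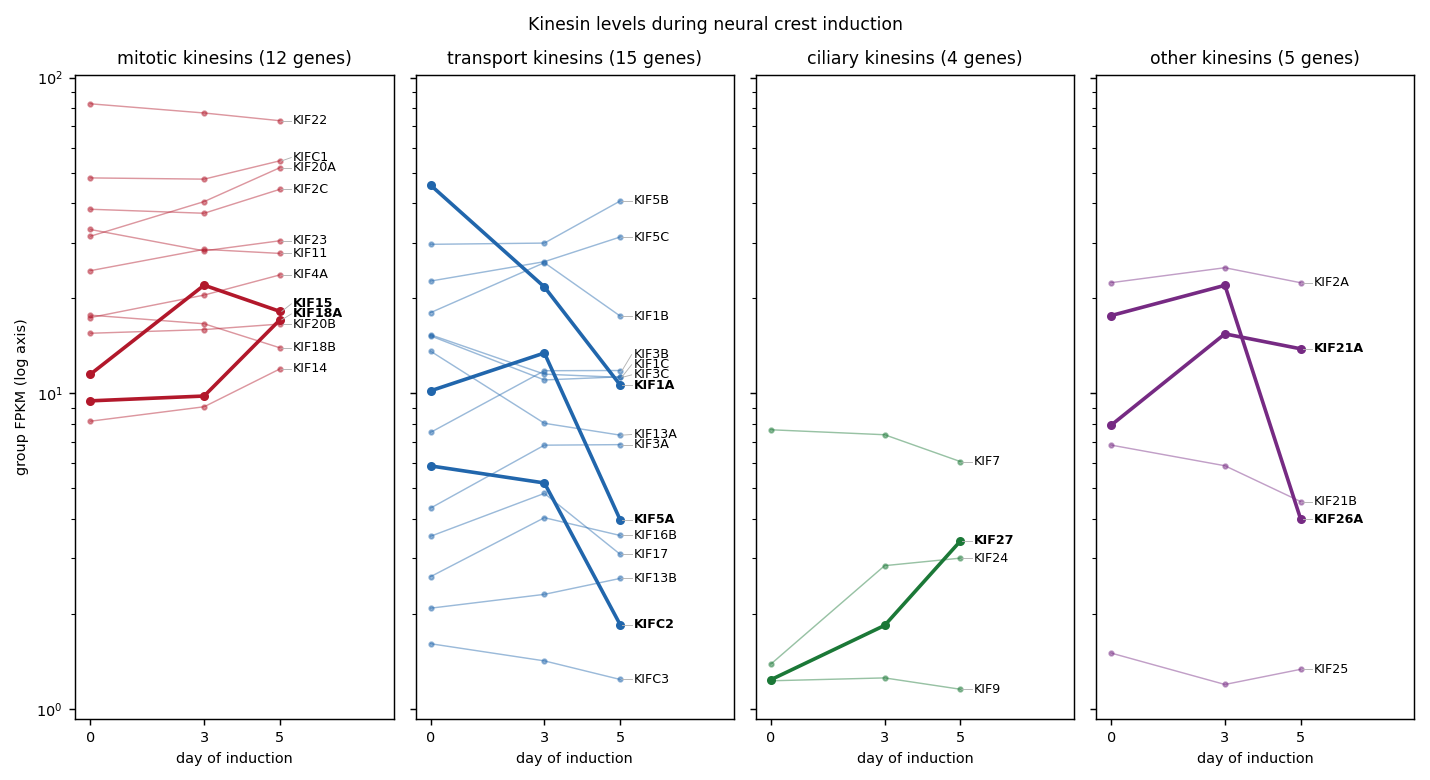
Group FPKM (log axis) of the 36 kinesins at an FPKM of at least 1 in any group, against the day of induction, in 4 panels by class. Each line is 1 gene, and bold lines mark genes called in at least 1 comparison at a q below 0.05. KIF1A, KIF5A, KIFC2 and KIF26A end below their day 0 level, and the mitotic panel has 2 bold lines, KIF15 and KIF18A, which both end above their day 0 level.

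Few mitotic kinesins were called at any step. Of 13 tested members, 1 was called higher and 0 lower on day 3 compared with day 0, and 12 were not called. The counts were the same on day 5 compared with day 3 and on day 5 compared with day 0. Among all genes tested, the called share in either direction was 20.6% for day 3 over day 0, 12.6% for day 5 over day 3 and 27% for day 5 over day 0. The 12 members at an FPKM of at least 1 had a median log2 ratio of FPKM plus 1 of 0.04 for day 3 over day 0, against 0.04 for all genes passing the same filter. For day 5 over day 3 it was 0.15, against -0.05 for all genes, and for day 5 over day 0 it was 0.19, against -0.01 for all genes.

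KIF15, a kinesin-12 that helps to hold spindle poles apart, was at 11.5 FPKM on day 0, 22.0 on day 3 and 18.2 on day 5. KIF15 was higher on day 3 than on day 0 (log2 0.94 ± 0.41, q = 0.00363 in the authors' deposited table). KIF15 was highest on day 3, but its day 5 level was not called against either earlier day (q = 0.552 against day 3 and 0.0668 against day 0 in the authors' deposited table). KIF18A, a kinesin-8 that damps chromosome oscillation at the metaphase plate, had 9.47, 9.81 and 17.1 FPKM on days 0, 3 and 5. Its rise came in the later step, with a log2 ratio of 0.80 ± 0.45 for day 5 over day 3 (q = 0.0199 in the authors' deposited table) and 0.85 ± 0.37 for day 5 over day 0 (q = 0.0121 in the same table). Neither gene stayed called when p was taken from the test statistic under a normal distribution.

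The remaining mitotic members passed no test. KIF20A was at 31.4 FPKM on day 0, 40.5 on day 3 and 51.8 on day 5 (log2 0.72 ± 0.46 for day 5 over day 0, q = 0.117 in the authors' deposited table). KIF14, a midbody kinesin, was at 8.16, 9.07 and 11.95 FPKM on days 0, 3 and 5. KIF4A, a chromokinesin that shortens midzone microtubules, was at 17.4, 20.5 and 23.7 FPKM on days 0, 3 and 5. Levels of these genes were highest on day 5, without a call. KIF11, the kinesin-5 that pushes spindle poles apart, was at 24.5, 28.6 and 27.7 FPKM on days 0, 3 and 5. KIF23, a subunit of the centralspindlin complex, was at 33.0, 28.3 and 30.4 FPKM on the same days. KIF22 was at 82.6, 77.2 and 73.0 FPKM on these days, and its log2 ratio of day 5 over day 0 was -0.18 ± 0.39. KIF11, KIF23 and KIF22 moved by less than their implied errors in each comparison. KIFC1 was at 48.1, 47.7 and 54.5 FPKM on days 0, 3 and 5, with its locus on a haplotype contig of chromosome 6. KIF2C, which depolymerises microtubules at kinetochores, was at 38.3, 37.2 and 44.3 FPKM on these days. KIF20B, a cytokinesis motor related to KIF20A, was at 15.5, 15.9 and 16.6 FPKM. KIF18B, which acts on astral microtubules, was at 17.7, 16.6 and 13.9 FPKM on days 0, 3 and 5 and had the lowest log2 ratio of the class for day 5 over day 0 (-0.34 ± 0.33). KIF4B, the copy of KIF4A that may share its reads, was at 0.367, 0.453 and 0.555 FPKM on days 0, 3 and 5. KIF2B was at 0.00583 FPKM on day 0 and listed at 0 on days 3 and 5. KIF20A shares its locus in the table with CDC23, and KIF18A with the microRNA gene MIR610, which is listed at 0 on all days.

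Few genes that work with mitotic kinesins were called. Of 20 spindle and cytokinesis partners tested, 0 were called for day 3 over day 0 and 0 for day 5 over day 3. RACGAP1, which binds KIF23 in centralspindlin, was the 1 called for day 5 over day 0, at 34.8 FPKM on day 5 and 21.3 FPKM on day 0 (log2 0.71 ± 0.37, q = 0.0423 in the authors' deposited table). The RACGAP1 call was not rechecked with a normal p of the test statistic. NUSAP1, a spindle microtubule binder, was at 69.7, 94.2 and 107 FPKM on days 0, 3 and 5, and AURKB, the chromosomal passenger kinase, at 91.4, 81.8 and 80.3 FPKM, both without a call. The called shares of these partners were 0%, 0% and 5% for day 3 over day 0, day 5 over day 3 and day 5 over day 0. Among all genes tested they were 20.6%, 12.6% and 27%. The median log2 ratio of FPKM plus 1 over these partners was 0.28 for day 5 over day 0, against -0.01 for all genes passing the same filter. Of 13 proliferation markers 2 were called higher for day 3 over day 0, namely TYMS and RRM2 of nucleotide synthesis, and 0 lower. For day 5 over day 3, 0 were higher and 1 lower (MCM5). For day 5 over day 0, 1 was higher (TYMS, 83.9 FPKM on day 5 and 36.7 on day 0) and 2 lower, the replication helicase subunits MCM5 (42.0 FPKM on day 5 and 95.9 on day 0) and MCM3 (81.2 and 144 FPKM on the same days). The called shares of the proliferation markers were 15.4%, 7.69% and 23.1% in these comparisons, not far below the shares of all genes. The summed level of the proliferation markers was 1160 FPKM on day 0, 1202 on day 3 and 1089 on day 5.

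Of 11 regulators of mitotic genes, 1 was higher and 0 lower for day 3 over day 0. It was 0 higher and 1 lower for day 5 over day 3, and 2 higher and 1 lower for day 5 over day 0. The called shares were 9.09%, 9.09% and 27.3%, against 20.6%, 12.6% and 27% of all genes tested. LIN54, the MuvB subunit that binds the homology region, was at 2.22, 3.98 and 4.05 FPKM on days 0, 3 and 5 and was called higher on day 3 than on day 0 (q = 0.0387 in the authors' deposited table). MYBL2, which joins MuvB to activate late cell cycle genes, was at 75.3, 77.2 and 41.1 FPKM on these days. It fell by 0.91 ± 0.32 on the log2 scale on day 5 compared with day 3 (q = 0.00475 in the authors' deposited table). On day 5 compared with day 0 the genes called higher were LIN54 and CDKN1A (the inhibitor p21, 35.6 FPKM on day 5 and 21.1 on day 0), and the one called lower was MYBL2. For CDKN1A the log2 fold change in the authors' deposited table is 1.21, whereas its FPKM give 0.76.

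Transport kinesins were called in the downward direction where they were called at all. Of 15 tested members, 0 were higher and 1 lower for day 3 over day 0, 0 higher and 3 lower for day 5 over day 3, and 0 higher and 2 lower for day 5 over day 0. The share of members called lower was thus 6.67%, 20% and 13.3%. Among all genes tested the share called lower was 11.6%, 6.68% and 14.7% in these comparisons, and the share called higher 8.96%, 5.93% and 12.2%. Only for day 5 over day 3 did the members lie above all genes, and KIFC2, called there, shares a locus with FOXH1. The median log2 ratio of FPKM plus 1 over the 15 members was 0.10 for day 3 over day 0, -0.11 for day 5 over day 3 and -0.15 for day 5 over day 0. The mitotic median minus the transport median was -0.06, 0.26 and 0.34 in these comparisons. This difference between classes was not tested. With the class cut to members at an FPKM of at least 5 in any group, the difference for day 5 over day 0 was 0.59.

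**Figure D3:**
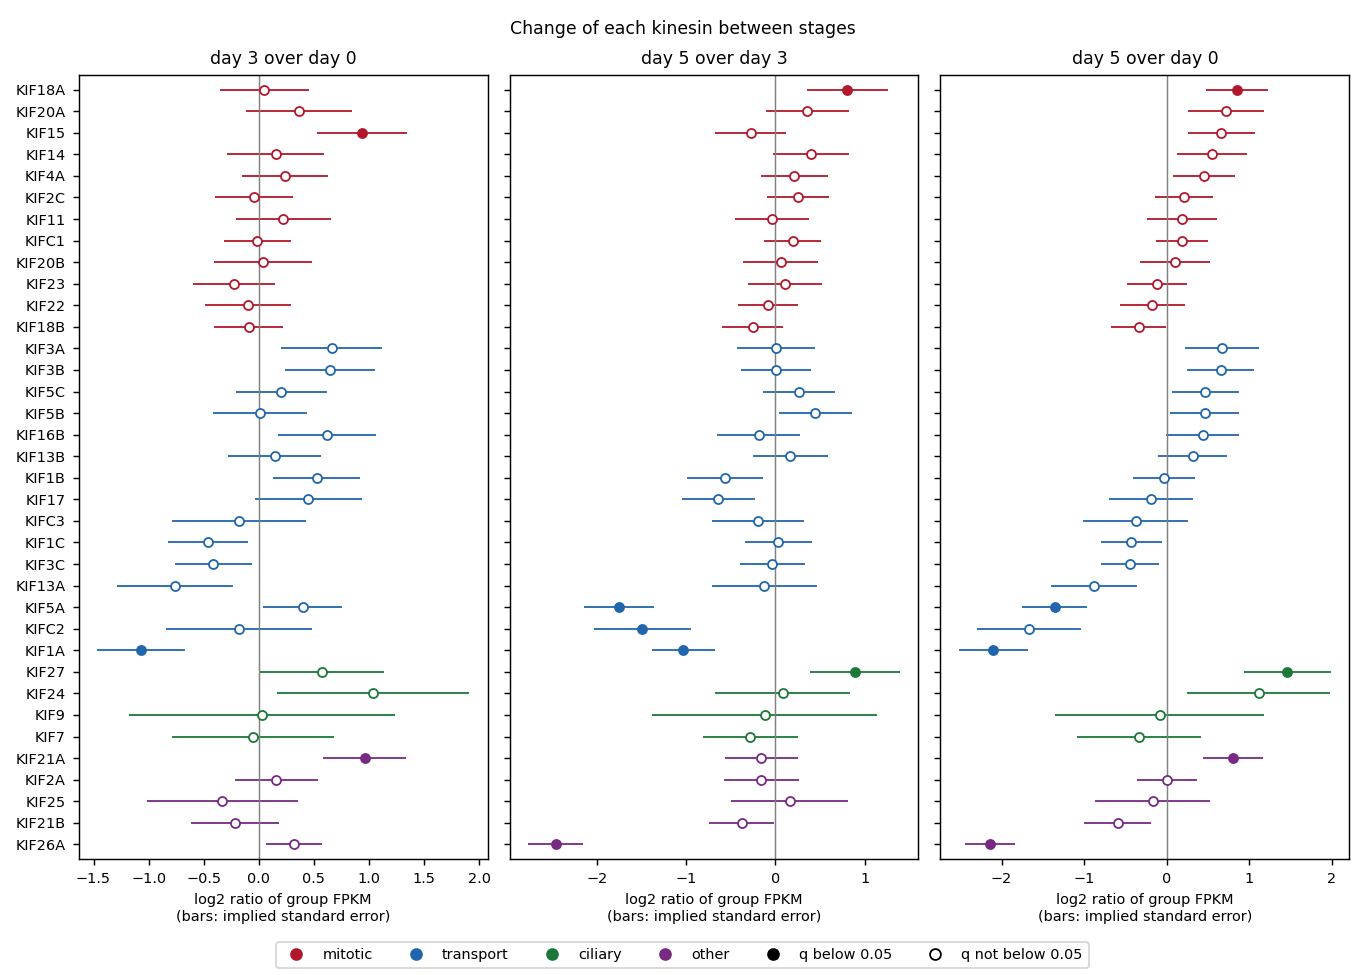
The log2 ratio of group FPKM of 36 kinesins in 3 comparisons, later day over earlier day, with bars of 1 standard error implied by the authors' test statistic. Filled circles are genes at a q below 0.05 and colours mark the class. The filled blue circles all lie left of 0 and the filled red ones right of it, with most red circles open and close to 0.

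KIF1A, the kinesin-3 that carries synaptic vesicle precursors and dense core vesicles, was at 45.6 FPKM on day 0, 21.7 on day 3 and 10.6 on day 5. KIF1A was the one kinesin called in all 3 comparisons. The day 3 level was 2.0996-fold lower than that of day 0 (log2 -1.07 ± 0.40) and the day 5 level 2.04-fold lower than that of day 3 (log2 -1.03 ± 0.35), with q = 0.000596 and q = 0.00157 in the authors' deposited table. Over the whole course KIF1A fell by 2.102 ± 0.42 on the log2 scale on day 5 compared with day 0 (q = 0.000596 in the same table). The call for day 3 over day 0 was lost with a normal p of the test statistic. Its relatives were not called. KIF1B, which carries mitochondria and vesicles, was at 18.0, 25.9 and 17.6 FPKM on days 0, 3 and 5, and KIF1C, a widely expressed motor for Golgi and integrin traffic, at 15.2, 11.03 and 11.3 FPKM on these days. KIF1A thus held 57.9% of the summed KIF1 level on day 0, 37.0% on day 3 and 26.9% on day 5, and KIF1B had the highest level of the 3 from day 3 on. KIF1A (hg19 chromosome 2, 241653181 to 241759725) has 3 annotated starts in the promoter table, and none of their windows held a CCAAT box or a homology region.

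KIF5A, a heavy chain of kinesin-1 enriched in neurons, was at 10.2 FPKM on day 0, 13.4 on day 3 and 3.98 on day 5. The day 5 level was 3.37-fold lower than that of day 3 (log2 -1.75 ± 0.39) and lower than that of day 0 (log2 -1.36 ± 0.39), both with q = 0.000596 in the authors' deposited table. KIF5B, the ubiquitous heavy chain, was at 29.6, 29.9 and 40.7 FPKM on days 0, 3 and 5, and KIF5C at 22.7, 26.1 and 31.3 FPKM, both without a call. KIF5A accounted for 16.3% of the summed heavy chain level on day 0, 19.3% on day 3 and 5.24% on day 5. The fall of KIF5A (hg19 chromosome 12, 57943847 to 57978554) was therefore a late one, whereas KIF1A was already lower on day 3. No kinesin light chain was called. KLC1 was at 51.5, 55.5 and 67.0 FPKM on days 0, 3 and 5, and KLC2 at 22.7, 22.4 and 26.5 FPKM. The less abundant KLC3 and KLC4 ended lower, KLC3 at 5.28, 2.81 and 2.25 FPKM and KLC4 at 11.1, 9.93 and 7.26 FPKM on these days.

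**Figure D4:**
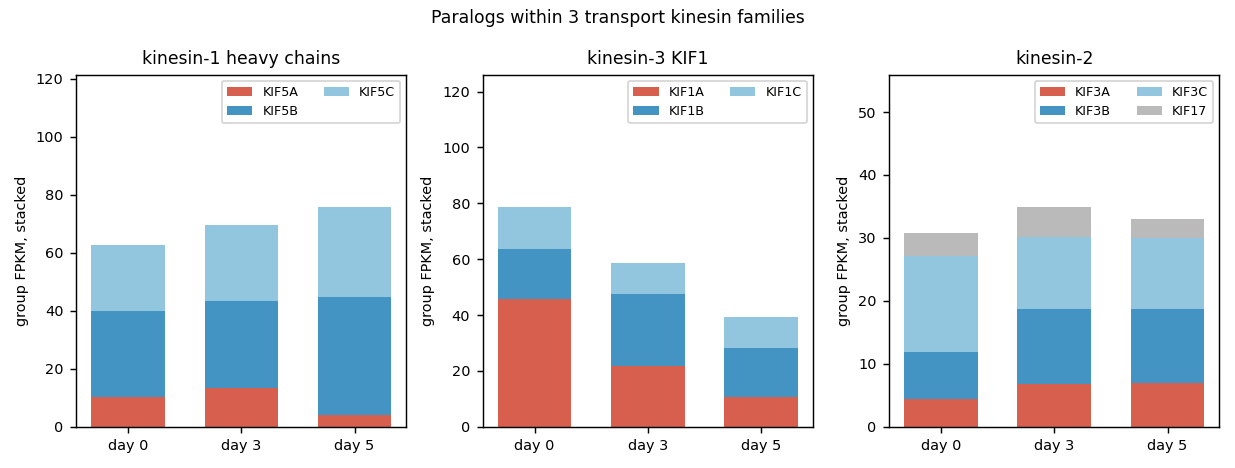
Stacked group FPKM of the kinesin-1 heavy chains, the KIF1 genes of kinesin-3 and the kinesin-2 genes on days 0, 3 and 5, with a separate linear scale in each panel. The lowest block is KIF5A, KIF1A or KIF3A. KIF1A takes 26.9% of its stack on day 5 and 57.9% on day 0, and KIF5A takes 5.24% on day 5 and 16.3% on day 0.

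KIFC2, a minus-end directed motor, was at 5.89 FPKM on day 0, 5.20 on day 3 and 1.85 on day 5. KIFC2 was called lower on day 5 than on day 3 (log2 -1.49 ± 0.54, q = 0.0351 in the authors' deposited table) and was not called against day 0 (q = 0.0688 in the same table). The call was lost with p adjusted within the comparison. KIFC2 shares its locus in the table with FOXH1, a Nodal pathway factor at 60.2, 17.4 and 1.21 FPKM on days 0, 3 and 5. Whether the counting used strand is not given in the sources used here, and the part of FOXH1 reads in the KIFC2 value was not tested. Without members at a shared locus or on a haplotype contig, 3 kinesins were called lower for day 5 over day 3 (KIF1A, KIF5A and KIF26A) and 1 higher (KIF27).

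Kinesin-2 drives vesicle transport and carries material to the tip of the cilium. KIF3A was at 4.33 FPKM on day 0, 6.85 on day 3 and 6.88 on day 5, and its partner KIF3B at 7.53, 11.8 and 11.8 FPKM on these days. Both were higher on days 3 and 5 than on day 0 by similar amounts without passing the test (for day 5 over day 0, log2 0.67 ± 0.45 and q = 0.0865 for KIF3A, and 0.65 ± 0.40 and q = 0.0783 for KIF3B, in the authors' deposited table). KIF3C, the alternative partner of KIF3A, was at 15.3, 11.5 and 11.2 FPKM on days 0, 3 and 5, so that KIF3B and KIF3C stood near each other from day 3 on. KIF17, a homodimeric kinesin-2, was at 3.53, 4.82 and 3.09 FPKM on these days without a call. KIFAP3, the accessory subunit that binds the KIF3 dimers, was called higher, at 6.46 FPKM on day 5 and 1.78 FPKM on day 0 (log2 1.86 ± 0.46, q = 0.000596 in the authors' deposited table).

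The remaining transport members were not called in any comparison. KIF13A, which moves recycling endosomes, was at 13.6, 8.04 and 7.37 FPKM on days 0, 3 and 5 (log2 -0.88 ± 0.52 for day 5 over day 0, q = 0.0741 in the authors' deposited table). KIF13B, its paralog, was at 2.09, 2.31 and 2.59 FPKM on these days. KIF16B, an early endosome motor, was at 2.63, 4.04 and 3.55 FPKM, and KIFC3, an epithelial minus-end motor, at 1.61, 1.42 and 1.24 FPKM.

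Neuronal markers were set beside KIF1A and KIF5A, since both genes are known from neurons. Of 13 markers in the table none was listed at 0, and ELAVL4, MAPT and SNAP25 stayed below an FPKM of 1 on all days. Their summed level was 279 FPKM on day 0, 444 on day 3 and 294 on day 5. The largest single part of that sum was TUBB3, a neuronal tubulin at 202, 292 and 136 FPKM on days 0, 3 and 5, and without it the sum of the other 12 was 77.4, 152 and 158 FPKM. For day 3 over day 0, 6 were called higher and 3 lower, for day 5 over day 3, 2 higher and 5 lower, and for day 5 over day 0, 4 higher and 3 lower. The called shares were 69.2%, 53.8% and 53.8%, against 20.6%, 12.6% and 27% of all genes tested. MAP2, a dendritic microtubule protein, was at 4.18, 54.7 and 57.8 FPKM on days 0, 3 and 5, and STMN2, a growth cone protein, at 2.60, 27.4 and 7.94 FPKM. GAP43, another growth cone protein, was at 16.4, 29.5 and 65.5 FPKM on these days. SYT1, the calcium sensor of synaptic vesicles, was at 12.8, 3.56 and 4.87 FPKM, and NEFL, a neurofilament subunit, at 13.9, 4.50 and 2.14 FPKM. The markers thus moved in different directions, with SYT1 and NEFL highest on day 0, STMN2 and TUBB3 on day 3, and MAP2 and GAP43 on day 5. The part of neuronal cells in these results was not tested. Of the 2 glial markers reported, S100B was at 0.203, 0.997 and 1.05 FPKM on days 0, 3 and 5 and GFAP at 0.268, 0.165 and 0.0414 FPKM. For day 3 over day 0, 1 was called higher (S100B), for day 5 over day 3, 0 were called, and for day 5 over day 0, S100B was called higher and GFAP lower.

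Of 5 ciliary kinesins tested, 0 were called for day 3 over day 0, and 1, KIF27, was called higher for day 5 over day 3 and for day 5 over day 0. Among all genes tested, 5.93% were called higher for day 5 over day 3 and 12.2% for day 5 over day 0. KIF27, a kinesin-4 related to KIF7 that takes part in building motile cilia in the mouse, had 1.24, 1.84 and 3.41 FPKM on days 0, 3 and 5. By day 5 it was higher than on day 0 (log2 1.46 ± 0.53, q = 0.000596 in the authors' deposited table) and than on day 3 (log2 0.89 ± 0.51, q = 0.0411 in the same table). The call for day 5 over day 3 was lost with p adjusted within that comparison and with a normal p of the test statistic. KIF24, which restrains cilium assembly at the mother centriole, was at 1.39, 2.85 and 3.01 FPKM on days 0, 3 and 5 without a call (log2 1.11 ± 0.87 for day 5 over day 0). KIF7, which organises the ciliary tip for Hedgehog signalling, was at 7.67, 7.39 and 6.08 FPKM on days 0, 3 and 5. KIF9, a motor of motile cilia, was at 1.23, 1.26 and 1.16 FPKM on these days. KIF7, KIF9 and KIF24 each share a locus with another gene in the table, KIF7 with C15orf42, KIF9 with KLHL18 and FLJ39534, and KIF24 with UBAP1. C15orf42 was at 8.62, 7.62 and 6.35 FPKM on days 0, 3 and 5, and its part in the KIF7 value was not tested. KIF19, a depolymerase of motile cilia, and KIF6 were at most at 0.994 and 0.208 FPKM.

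The cargo machinery of the cilium was followed in the intraflagellar transport genes. Of 21 intraflagellar transport genes, 5 were higher and 0 lower for day 3 over day 0, 1 higher and 0 lower for day 5 over day 3, and 9 higher and 0 lower for day 5 over day 0. The genes not called numbered 16, 20 and 12 in these comparisons. The shares called higher were 23.8%, 4.76% and 42.9%, against 8.96%, 5.93% and 12.2% of all genes tested. Unlike those of the kinesins, these calls were not rechecked with a normal p of the test statistic. IFT81, which binds tubulin cargo, was at 10.6, 26.5 and 32.1 FPKM on days 0, 3 and 5 (log2 1.602 ± 0.38 for day 5 over day 0, q = 0.000596 in the authors' deposited table). DYNC2H1, the heavy chain of the dynein that runs back from the ciliary tip, was at 1.58, 6.24 and 5.66 FPKM on these days, and its light intermediate chain DYNC2LI1 at 8.04, 11.5 and 22.4 FPKM. TTC30B, called higher on day 3 than on day 0, was at 1.52, 3.59 and 4.35 FPKM, with a near-identical paralog in TTC30A that makes its value uncertain. Over these genes the median log2 ratio (FPKM plus 1) was 0.65 for day 5 over day 0, against -0.01 for all genes passing the same filter.

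Hedgehog transducers, which act with KIF7, went both ways while KIF7 itself was not called. For KIF7 the log2 ratio of day 5 over day 0 was -0.33 ± 0.75, a wide error. For day 3 over day 0, 4 of 10 tested were higher and 0 lower. For day 5 over day 3, 2 of 11 were higher and 3 lower, and for day 5 over day 0, 4 were higher and 1 lower. The called shares were 40%, 45.5% and 45.5%, against 20.6%, 12.6% and 27% of all genes tested. GLI3, the main repressor among the GLI factors, was at 4.95, 27.04 and 51.0 FPKM on days 0, 3 and 5. SUFU, which holds GLI proteins in check, was at 4.68, 13.9 and 12.3 FPKM on these days. The pathway target GLI1 was at 7.22, 5.23 and 0.587 FPKM, and PTCH1, the receptor and a target, at 6.42, 13.2 and 6.91 FPKM.

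Among the other members, KIF26A, KIF21A and KIF12 were called. KIF26A, an atypical kinesin-11 without motor activity that restrains GDNF signalling in enteric neurons of the mouse, was at 17.6 FPKM on day 0, 22.0 on day 3 and 3.99 on day 5. KIF26A had the largest fall of the kinesins tested for day 5 over day 3, 5.50-fold (log2 -2.46 ± 0.31, q = 0.000596 in the authors' deposited table), and was lower on day 5 than on day 0 as well (log2 -2.14 ± 0.31, q = 0.000596 in the same table). The gene lies on hg19 chromosome 14, 104605060 to 104647235, and its relative KIF26B was at most at 0.276 FPKM. KIF21A, a kinesin-4 that limits microtubule growth at the cell cortex, had 7.93, 15.4 and 13.8 FPKM on days 0, 3 and 5. KIF21A was higher on day 3 than on day 0 (log2 0.96 ± 0.38, q = 0.00242 in the authors' deposited table) and on day 5 than on day 0 (log2 0.80 ± 0.37, q = 0.0215 in the same table). Neither call was kept with a normal p of the test statistic. Its paralog KIF21B was at 6.86, 5.90 and 4.54 FPKM on days 0, 3 and 5 without a call, and KIF21A made up 53.6% of the pair on day 0, 72.3% on day 3 and 75.3% on day 5.

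KIF12 was at 0.928 FPKM on day 0, 0.125 on day 3 and 0.0535 on day 5. KIF12 was called lower on day 3 than on day 0 (log2 -2.90 ± 0.65, q = 0.0118 in the authors' deposited table) and on day 5 than on day 0 (log2 -4.12 ± 0.92, q = 0.0112 in the same table), at levels that may rest on few fragments. KIF2A, a depolymerase that works at spindle poles and in growing axons, was at 22.4, 24.99 and 22.4 FPKM on days 0, 3 and 5. KIF25, a minus-end motor of the centrosome, was at 1.505, 1.20 and 1.34 FPKM on these days. Neither was called.

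Counted over the whole family, 4 of 39 tested kinesins (10.3%) were called for day 3 over day 0, against 20.6% of all tested genes. For day 5 over day 3 it was 6 of 39 (15.4%), against 12.6%, and for day 5 over day 0 7 of 40 (17.5%), against 27%. Over the 3 comparisons, which share groups, 9 kinesins were called at least once and 33 never. The share of all genes called at least once was not computed, so these counts have no background to be read against. The share for day 5 over day 3 lay near that of all genes, and those of the comparisons with day 0 lay below it.

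Of 16 kinesin partners, which include CENPE and STARD9, 2 were higher and 0 lower for day 3 over day 0. It was 1 higher and 2 lower for day 5 over day 3, and 3 higher (KIFAP3, STARD9 and CENPE) and 1 lower for day 5 over day 0. The called shares were 12.5%, 18.75% and 25%, against 20.6%, 12.6% and 27% of all genes tested. FEZ1, an adaptor of kinesin-1, was at 56.7, 112 and 63.8 FPKM on days 0, 3 and 5 and was called in both steps. MAPK8IP1, a scaffold that couples kinesin-1 to cargo, was at 23.6, 19.2 and 9.25 FPKM on these days and was lower on day 5 than on day 0 (log2 -1.35 ± 0.31, q = 0.000596 in the authors' deposited table). STARD9, a centrosomal kinesin, was at 1.20, 3.01 and 2.86 FPKM on days 0, 3 and 5. CENPE, the kinetochore kinesin-7, named after its values were seen, was at 10.1, 11.9 and 17.6 FPKM and was called higher on day 5 than on day 0 (q = 0.0186 in the authors' deposited table). The CENPE call was not rechecked with a normal p of the test statistic. Dynein and dynactin genes, the motor of the opposite direction, counted 2 higher and 1 lower of 21 for day 3 over day 0. It was 1 higher and 0 lower for day 5 over day 3, and 2 higher and 0 lower for day 5 over day 0. Their called shares, 14.3%, 4.76% and 9.52%, lay below those of all genes. DCTN3, a dynactin subunit, was at 19.9, 40.1 and 50.3 FPKM on days 0, 3 and 5. DYNLL2, a dynein light chain, was at 80.0, 157 and 118 FPKM on these days, and BICD1, a cargo adaptor, was called lower on day 3 (4.75 FPKM) than on day 0 (8.31 FPKM). DYNC1I1, an intermediate chain, was at 1.01 FPKM on day 5 and 0.422 on day 0.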

How the data were processed

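RNA-seq of 6 libraries, 2 per group, was deposited as 1 gene-level table. The submitters' processing notes list the build hg19, Cuffdiff 2.1.1 and TopHat2 2.0.10, besides TopHat. No source used here states the annotation, the strand setting or the depth per library. Depth is thus unknown, and no value per library was used. Per the file headers, the authors' FPKM value of each group combines its libraries, and the table gives a status, a test statistic (used as a score), a p-value and a q-value per gene and comparison. A Benjamini-Hochberg adjustment of the deposited p-values over the 48572 tested rows, with the 3 comparisons together, differed from the deposited q-values by at most 5.25e-07. No p is below 5e-05, a floor at which 4078 rows lie. The deposited log2 fold change differed from the ratio of FPKM by over 0.01 in 37 of 48251 rows compared, of which 0 were kinesins and 1 list gene (CDKN1A) was affected.

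Log2 ratios were computed here from FPKM (Python 3.11.15, pandas 2.3.3), and implied standard errors by dividing them by the test statistic. Those errors do not always match the deposited q. Genes with status OK were tested and called at a q below 0.05. Class medians used members' log2 ratios after 1 FPKM was added as a pseudocount (small FPKM values then give a ratio nearer 0), over members at an FPKM of at least 1 in any group. The calling code was tested on simulated data. Locus starts were taken as counted from 0 (end minus start gave the RefSeq width in 1901 genes, and 1 base more did in 253) and are printed counted from 1.

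All kinesins are named. From each other list up to 3 called genes of largest change were named per comparison, or the 2 of highest FPKM where none was called. Members, classes and lists were chosen with earlier results of these data known. A gene of the mitotic regulator list and some of the glial list are not reported here. Promoter windows were matched by symbol, and the last 25 bases of 34 of 43 windows were found in a GENCODE v29 transcript of the same gene on the sense strand, and of 0 on the antisense strand. Alternatives were a q below 0.01, a normal p of the test statistic, adjustment within a comparison, rescaling by the median ratio, other FPKM minimums, another pseudocount (0.1), another class assignment and the mean. They were applied to the kinesins only, and calls of genes in the other lists were not rechecked.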

Additional observations from a re-analysis of the deposited data

How the results depend on the processing

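No paired analysis was possible because the table holds 1 value per group and none per library, and for the same reason no replicate could be left out. With a q below 0.01, 3 kinesins were called for day 5 over day 3 (0 higher, 3 lower), where 6 were called at 0.05, and 4 for day 5 over day 0 (1 higher, 3 lower), where 7 were called. With a normal p of the test statistic, 1 kinesin, KIF12, was called for day 3 over day 0, where 4 were called from the deposited q. Shares of all genes were computed only at a q below 0.05. The counts under other settings, here and below, therefore say nothing particular to kinesins. KIF1A, KIF5A and KIF26A were called for day 5 over day 3 and for day 5 over day 0 under each setting tried. Of these settings, only the q below 0.01, the normal p and the adjustment within a comparison could have ended their calls. The transport median for day 5 over day 0 was -0.40 over members at an FPKM of at least 5, and the mitotic minus transport difference was then 0.59. The mean over transport members was -0.28 for day 5 over day 3, where the median was -0.11. The mean includes KIF5A, KIFC2 and KIF1A at -1.53, -1.12 and -0.97 for day 5 over day 3, where the next lowest member, KIF1B, was at -0.54. The minimum of 5 leaves out KIF13B, KIF16B, KIF17 and KIFC3. Why these genes differ was not tested. The sign of the small class difference for day 3 over day 0 depended on the summary, at 0.10 between means and 0.03 over members at an FPKM of at least 5, against -0.06 between medians. Class medians counted as moved when they shifted by more than the standard error of a median taken from the implied errors. That error treats genes measured in the same libraries as independent and may be too small. Rescaling by the median ratio of all genes (log2 0.05, -0.06 and -0.01) turned the sign of uncalled values near 0, namely for day 3 over day 0 KIF18A (-0.00094), KIF20B (-0.01309), KIF5B (-0.0387) and KIF9 (-0.0213), for day 5 over day 3 KIF11 (0.018) and KIF3C (0.0265), and for day 5 over day 0 KIF2A (0.00938). Leaving out members at a shared locus or on a haplotype contig, chosen after seeing the data, gave 4, 4 and 6 called kinesins in the 3 comparisons. Of 580 recomputed values of single members, 557 kept their direction and side of the threshold and 16 lost a call. Much of this was fixed in advance and does not measure robustness. Rescaling reused the deposited calls, so no call could change there, and a q below 0.01 could not add one. The FPKM minimum of 1 also reused them, but left out members below it in both groups compared. KIF12 dropped out in this way, leaving 3 called kinesins for day 3 over day 0, where 4 were called without the minimum. Unknown depth sets no limit that could be stated for weakly expressed members such as KIF12.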
